A study of Mus musculus with 8 samples.

Results

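The genes described here are 10 that mark neutrophils: S100a8 and S100a9, which encode the 2 subunits of calprotectin; the surface receptors Csf3r and Cxcr2; the granule proteins Ngp, Camp, Ltf, Lcn2 and Mmp8; and Retnlg, a secreted resistin-like protein. They were chosen by name and are 10 of 37008 gene names carried by the array, read by 11 probes because Lcn2 had a pair. The samples were 8 soleus muscles, a slow postural muscle of the calf, taken at 14 weeks of age from C57BL/6J males, all of them fed a high-fat diet from 8 weeks of age. In 4 samples, filed as P. gingivalis, the mice had received cells of the gum bacterium Porphyromonas gingivalis through a feeding needle for 6 weeks, in 100 μL of saline. In the other 4, filed as saline, the mice had received saline alone. The number of bacteria was not given in the sources used here, and no label says that the arrays of a group are different animals, so the spread behind the p-values may in part be technical. The design asks whether the oral bacterium changed expression in this muscle.

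Neutrophils are short-lived white cells made in bone marrow, carried in blood and drawn into injured or infected tissue by chemokines of the CXC family. As they mature they fill primary, then secondary, then tertiary granules. The transcripts of granule proteins such as lactoferrin and cathelicidin are made mostly in marrow precursors, whereas S100a8, S100a9, Csf3r, Cxcr2 and Retnlg are still transcribed in circulating cells. Resting skeletal muscle holds few neutrophils outside its vessels. In RNA from whole muscle, fewer cells of a type and less RNA per cell cannot be told apart.

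Values are log2 spot signals, less the 75th percentile of their array, so a step of 1 is a factor of 2 and a value below 0 is dimmer than that percentile. A spot is called well above background by the scanner software. All 8 arrays lay on 1 slide, with the saline arrays on 1 side and the P. gingivalis arrays on the other, so side and group cannot be told apart, and the replicate number was also the row on the slide. Directions follow the sample records. Each of the 8 columns of the authors' deposited table held, under its replicate number, an array that the sample records place in the opposite group, so every direction would turn if the table's names were right. The dim end of the scale also differed between groups. The lowest value called well above background was -5.23 to -4.49 on the saline arrays and -5.66 to -5.43 on the P. gingivalis arrays, and over 15722 probes well above background on no array the median difference, P. gingivalis minus saline, was -0.70, with 90.2% lower. Of slow fibre genes 8 of 8 were well above background on every array, with a mean value of 8.31 to 8.55 per array. Fast fibre genes were too, with a mean value of 7.05 to 8.31, so these values bear out muscle but do not single out soleus.

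**Figure D1:**
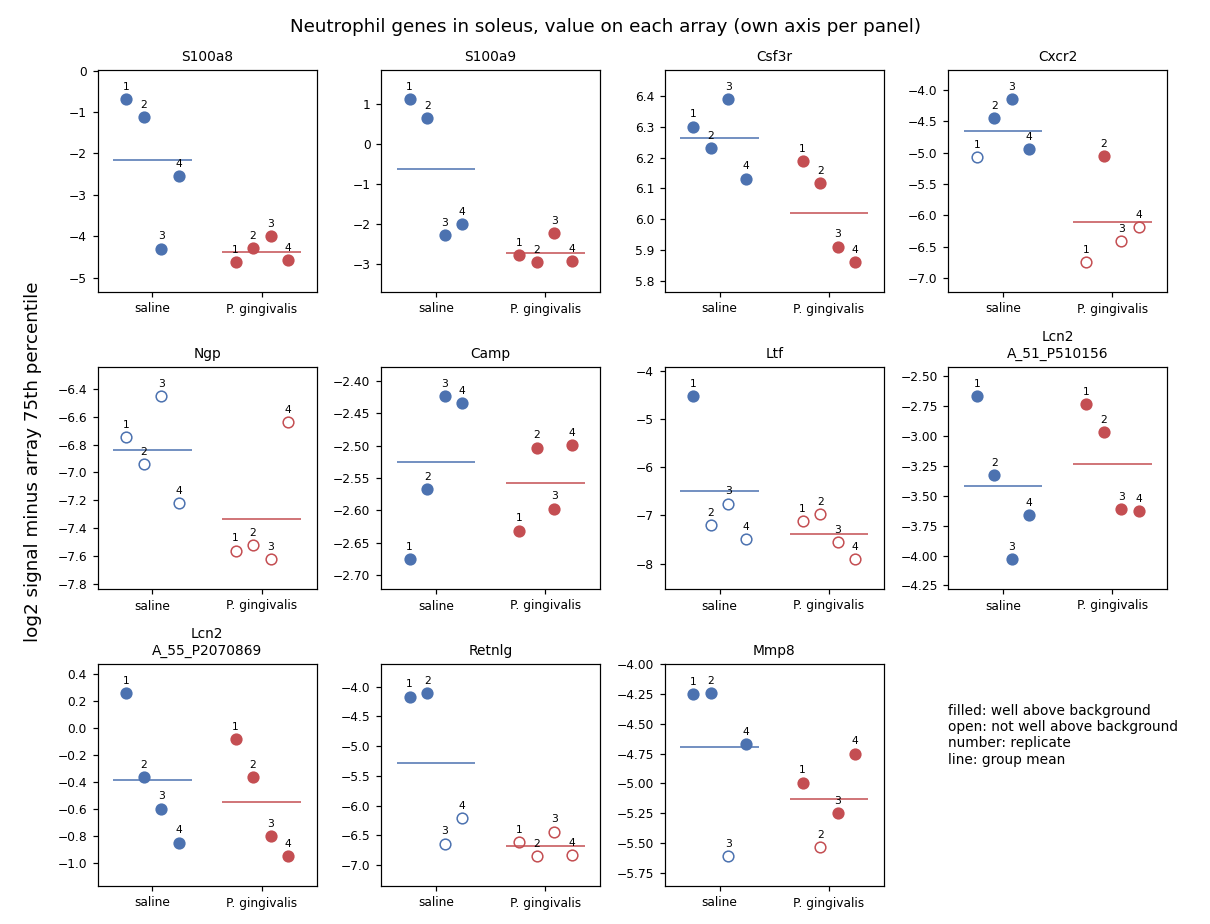
Each panel shows 1 probe of the 10 neutrophil genes, with the log2 signal less the array's 75th percentile on the vertical axis, 1 point per array (numbered by replicate) and a line at the group mean of 4 arrays. Filled points are well above background and open points are not. S100a8, S100a9, Retnlg and Mmp8 have their 2 highest points in saline 1 and 2, while Csf3r spans 0.53 and Camp 0.25 over the 8 arrays.

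Calprotectin is a pair of small calcium-binding proteins that sequesters zinc and manganese from microbes and, once released, acts on Toll-like receptor 4 and on the receptor for advanced glycation end products. S100a8, read by a probe on chromosome 3 from 90473778 to 90473837 in mouse build mm9, stood at -0.69, -1.13, -4.30 and -2.54 in saline 1 to 4. In P. gingivalis 1 to 4 it stood at -4.64, -4.28, -3.995 and -4.58. Saline 1 and 2 were the highest arrays, saline 4 came next, and saline 3 lay inside the range of the P. gingivalis arrays, so the groups overlapped. In processed signal, in arbitrary units, the same probe read 475, 338, 35.3 and 121 in saline 1 to 4 and between 29.7 and 46.0 in the P. gingivalis arrays. The group means were -2.17 ± 1.63 (SD, n = 4) in saline and -4.37 ± 0.30 (SD, n = 4) in P. gingivalis. The difference was -2.21 ± 0.72 (SE), or 4.62-fold higher in saline with a 95% interval of 1.45 to 14.8, and it did not pass the threshold of 0.05 after adjustment over 22221 genes (limma, unadjusted p = 0.0161, adjusted p = 0.165).

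S100a9, whose probe lies on chromosome 3 from 90496573 to 90496632 in mm9, was ordered alike. It stood at 1.13, 0.66, -2.27 and -2.01 in saline 1 to 4 and at -2.79, -2.97, -2.24 and -2.93 in P. gingivalis 1 to 4. Saline 1 and 2 stood apart from all other arrays, saline 4 came next, and saline 3 lay just under P. gingivalis 3. The difference was -2.10 ± 0.79 (SE), or 4.30-fold higher in saline with a 95% interval of 1.22 to 15.2, and did not pass (limma, unadjusted p = 0.0285, adjusted p = 0.203). Both calprotectin genes were well above background on all 8 arrays. Their SD within the saline group, 1.63 and 1.77, stood against 0.30 and 0.34 within the P. gingivalis group. The intervals and p-values of both genes assume 1 spread shared by the groups, which these SDs go against. A fit with a separate spread for each group was not run. Over the 8 arrays S100a8 and S100a9 correlated at r = 0.96, as a description of points that share a slide and an array each.

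Without saline 1 the differences were -1.72 for S100a8 and -1.52 for S100a9, without saline 2 -1.86 and -1.68, and without saline 3 -2.92 and -2.65, none of them past the threshold (limma, smallest adjusted p = 0.0756). With normexp background correction the S100a8 difference came down to -1.45 (limma, adjusted p = 0.107), and with the processing of the deposited table to -1.67. The authors' deposited table lists S100a8 at a log2 difference of 1.67 (adjusted p = 0.131) and S100a9 at 1.83 (adjusted p = 0.170), higher in the columns named P. gingivalis, which hold the saline arrays.

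Retnlg, the resistin-like gene of mature neutrophils, shared this order most closely. Its probe (chromosome 16 from 48874468 to 48874527 in mm9) was well above background on saline 1 (-4.17) and saline 2 (-4.11) only. Saline 3 and 4 stood at -6.64 and -6.20 and the P. gingivalis arrays at -6.85 to -6.44, none of them well above background. It was therefore not tested. The saline mean stood 1.21-fold above a floor set by the lowest well-measured signal of each P. gingivalis array. This is not a lower bound on a fold, since that mean takes in saline 3 and 4, below the detection call. It also rests on saline 1 and 2, since leaving out either puts the saline mean (-5.65 or -5.67) below this floor and leaves no fold. Its correlation over the 8 arrays with the mean of S100a8 and S100a9 was 0.98, a description, since 6 of those values are below the detection call.

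Mmp8, neutrophil collagenase, was dim on its probe (chromosome 9 from 7567968 to 7568026 in mm9). It stood at -4.25, -4.24, -5.61 and -4.67 in saline 1 to 4 and at -4.99, -5.54, -5.25 and -4.75 in P. gingivalis 1 to 4. Saline 1 and 2 were again highest, with saline 4 and P. gingivalis 4 close behind, and saline 3 was the lowest of all. The difference was -0.44 ± 0.32 (SE) and did not pass (limma, adjusted p = 0.480). It was -0.74 without saline 3 and -0.29 without saline 1 or without saline 2, and -0.16 with normexp and -0.14 with the processing of the deposited table. Saline 3 and P. gingivalis 2 were not well above background for this probe.

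The promoters of S100a8, S100a9 and Retnlg are printed because these 3 genes were high on the same arrays. Each window runs from 250 bases before to 50 after the annotated start, 5′ to 3′ on the gene's strand, from RefSeq in build GRCm38.p6, whose coordinates differ from those of the probes. Capitals mark matches on either strand to TTNCNNAA (C/EBP, the factor family of late granulocyte genes), to GAGGAA (the core of PU.1, a myeloid factor) or to TATAAA (the TATA box).
S100a8, chr3:90668821-90669120, plus strand: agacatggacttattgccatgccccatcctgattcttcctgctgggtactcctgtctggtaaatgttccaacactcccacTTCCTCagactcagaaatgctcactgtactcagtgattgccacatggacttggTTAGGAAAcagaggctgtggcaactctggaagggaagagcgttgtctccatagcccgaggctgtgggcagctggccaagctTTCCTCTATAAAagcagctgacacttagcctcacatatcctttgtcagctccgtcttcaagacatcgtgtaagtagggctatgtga
S100a9, chr3:90695672-90695971, minus strand: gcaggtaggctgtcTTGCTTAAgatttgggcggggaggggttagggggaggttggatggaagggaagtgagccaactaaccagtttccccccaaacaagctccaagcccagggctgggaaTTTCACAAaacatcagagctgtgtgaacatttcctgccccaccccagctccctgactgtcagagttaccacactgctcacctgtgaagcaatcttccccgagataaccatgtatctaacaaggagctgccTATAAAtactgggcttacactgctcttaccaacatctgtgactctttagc
Retnlg, chr16:48872358-48872657, plus strand: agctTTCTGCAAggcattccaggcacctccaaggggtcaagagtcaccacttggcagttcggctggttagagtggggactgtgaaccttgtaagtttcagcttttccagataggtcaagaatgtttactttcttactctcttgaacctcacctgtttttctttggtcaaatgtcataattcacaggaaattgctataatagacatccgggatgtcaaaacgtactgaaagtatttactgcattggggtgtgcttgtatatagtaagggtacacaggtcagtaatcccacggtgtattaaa
In S100a8 the TATA letters begin 30 bases before the start and directly follow a PU.1 match that begins at -36; another PU.1 match begins at -170 and a C/EBP match at -117. S100a9 holds 2 C/EBP matches, at -236 and -130, and TATA letters at the start itself. Retnlg holds 1 C/EBP match, at -246, and neither of the other motifs. All 10 genes had a window, of which 7 held the C/EBP letters, 6 the PU.1 letters and 3 the TATA letters, while among all 32851 windows of this length 40.7%, 28.3% and 13.6% did. A match is a description of the letters only.

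Of the 2 receptors, Csf3r encodes the receptor for granulocyte colony-stimulating factor, the main growth factor of the lineage. Its probe (chromosome 4 from 125721478 to 125721537 in mm9) did not follow calprotectin. It stood at 6.30, 6.23, 6.39 and 6.13 in saline 1 to 4 and at 6.19, 6.12, 5.91 and 5.86 in P. gingivalis 1 to 4, with processed signals of 42132 to 60234. The values spanned 0.53 over all arrays, against 3.95 for S100a8 and 4.09 for S100a9. The difference was -0.24 ± 0.09 (SE) and did not pass (limma, unadjusted p = 0.0326, adjusted p = 0.213). Whether so bright and even a signal reports neutrophils was not tested.

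Cxcr2 encodes the receptor through which neutrophils follow Cxcl1 and related chemokines. Its probe (chromosome 1 from 74206886 to 74206945 in mm9) stood at -5.08, -4.45, -4.15 and -4.94 in saline 1 to 4 and at -6.75, -5.05, -6.41 and -6.19 in P. gingivalis 1 to 4. The highest array was saline 3, where calprotectin was low, and P. gingivalis 2 lay just above saline 1, so the groups overlapped by that array. The probe was well above background on saline 2, 3 and 4 and on P. gingivalis 2, so most P. gingivalis values lie at the dim end where the scale itself differed between groups. The difference was -1.45 ± 0.37 (SE), the lowest p of the 7 genes tested, and did not pass (limma, unadjusted p = 0.00498, adjusted p = 0.111). It was -0.39 with normexp background correction and -0.41 with the processing of the deposited table. It passed only when no dim probes were left out (-1.45, limma, adjusted p = 0.0483), a setting under which 5154 genes passed in all.

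Ngp, Ltf, Camp and Lcn2 encode proteins of the secondary granules, filled in marrow precursors. Ngp, neutrophilic granule protein (chromosome 9 from 110324266 to 110324814 in mm9), was well above background on 0 of 8 arrays, with values of -7.22 to -6.45 in saline and -7.62 to -6.64 in P. gingivalis. Ltf, lactoferrin, the iron-binding protein of these granules (chromosome 9 from 110942873 to 110942932), was well above background on saline 1 alone, at -4.52. The other 7 arrays lay between -7.91 and -6.75. Neither gene was tested.

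Camp, which encodes the antimicrobial peptide cathelicidin (chromosome 9 from 109749911 to 109749970), was well above background on all 8 arrays and nearly flat. It stood at -2.68, -2.57, -2.42 and -2.43 in saline 1 to 4 and at -2.63 to -2.50 in P. gingivalis, with saline 1, the array richest in S100a9, the lowest of all. The difference was -0.03 ± 0.07 (SE), with a 95% interval of -0.20 to 0.14 (limma, adjusted p = 0.832), and its sign turned under normexp, quantile normalization, the table's processing and without saline 3.

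Lcn2, lipocalin 2, binds bacterial iron carriers and is made by neutrophils and also by fat cells and epithelia. The brighter of its 2 probes (chromosome 2 from 32240199 to 32240258) stood at 0.26, -0.36, -0.60 and -0.85 in saline 1 to 4 and at -0.08, -0.36, -0.80 and -0.95 in P. gingivalis 1 to 4. In both groups the array on the first slide row was highest and that on the fourth lowest, so the values followed the slide row. The difference was -0.16 ± 0.27 (SE) (limma, adjusted p = 0.774), or -0.16 with an adjusted p of 0.312 in limma with the replicate number as a block. The sign turned to 0.05 without saline 1. The other probe (chromosome 2 from 32241037 to 32241281) differed by 0.19, the opposite sign, with saline 1 highest at -2.67 and saline 3 lowest at -4.03.

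Of the 10 genes, 7 passed the filter on dim probes and were tested, and 0 of them passed at an adjusted p under 0.05 in limma's test, where 0.117% of all 22221 genes did, 0.081% with a lower value in P. gingivalis. Before adjustment, p was under 0.05 for 4 of the 7, namely S100a8, S100a9, Csf3r and Cxcr2, where 19.7% of all genes reached it. All 7 had a lower mean in P. gingivalis, as did 52.3% of all genes, bright or dim, with a median difference of -0.44 for the 7 and -0.01 for all genes. The signs of Camp and Lcn2 turned under some alternatives, and the other Lcn2 probe was higher by 0.19. Groups were separate for 0 of the 7, where 6.07% of all genes were separate and lower in P. gingivalis. The filter, 4 arrays well above background, can be met by the saline arrays alone, so these counts describe the 7 measured genes and not the 10.

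**Figure D2:**
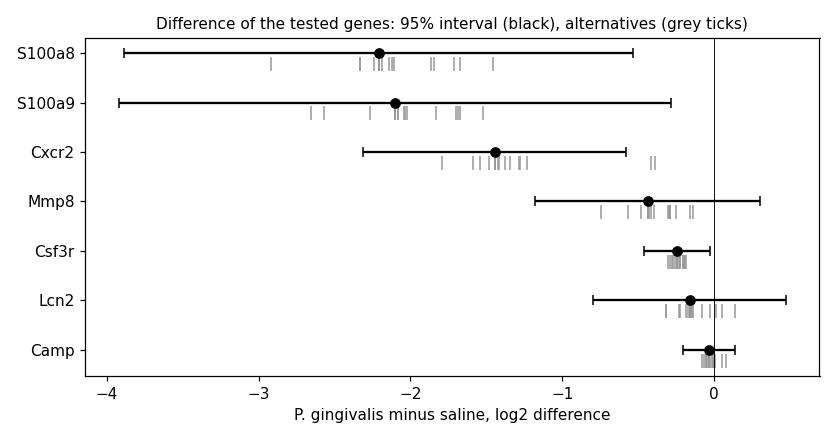
The horizontal axis gives the log2 difference, P. gingivalis minus saline, for the 7 tested genes, with black points for the value and black bars for its 95% interval (4 arrays per group). Grey ticks are the values under the alternative settings. Each interval assumes 1 spread shared by both groups. The intervals of S100a8 (-3.88 to -0.53) and S100a9 (-3.92 to -0.29) are the widest, that of Camp (-0.20 to 0.14) the narrowest, and the ticks of Cxcr2 at -0.39 and -0.41 come from other background corrections.

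Another 79 genes of neutrophil granules, receptors, chemokines and oxidase, and other S100 genes, were on the array, and 50 were tested. Of the 50, 34 were lower and 16 higher in P. gingivalis, with a median difference of -0.13, where 52.3% of all genes, bright or dim, were lower. Among probes well above background on no array 90.2% were lower, and of the 50 genes 40 were well above background on all 8 arrays. In limma's test 0 passed, with 6 at an unadjusted p under 0.05, which 19.7% of all genes reached. Groups were separate for 3, among them Bsg and the activating receptor gene Trem1 (0.19), all 3 higher in P. gingivalis, where 13.4% of all genes were separate in either direction. Of the 29 not tested, 20 were well above background on 0 arrays, among them the primary granule protease gene Prtn3, the gelatinase gene Mmp9, the surface marker Cd177 and the stefin gene Stfa2l1. Another, Slpi, was well above background on 7 arrays but lost to an outlier flag. Ly6g, the surface antigen by which mouse neutrophils are sorted, was well above background on all 8 arrays. It lay between -0.62 and -0.10 in saline and between -0.66 and -0.43 in P. gingivalis, a difference of -0.11 (limma, adjusted p = 0.641). As with Csf3r, whether this signal reports neutrophils was not tested.

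**Figure D3:**
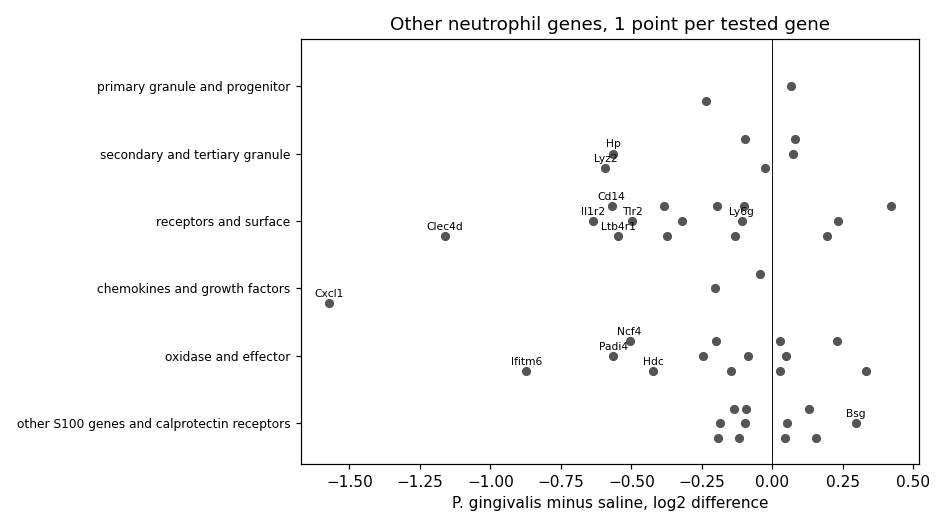
Each point is 1 of the 50 tested genes of the wider list, placed by its log2 difference, P. gingivalis minus saline, on the horizontal axis and grouped by role on the vertical axis. Cxcl1 (-1.57) and Clec4d (-1.16) lie farthest to the left, while the other S100 genes lie between -0.19 and 0.15.

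Among chemokines, 3 of 12 genes were tested. Cxcl1, a neutrophil attractant acting on Cxcr2, had the largest difference of the wider list. It stood at -1.41, -2.58, -4.02 and -3.31 in saline 1 to 4 and at -4.99, -4.44, -3.99 and -4.18 in P. gingivalis 1 to 4, so that saline 1 and 2 were highest here too and saline 3 lay within the other group. Its difference was -1.57 ± 0.52 (SE) and did not pass (limma, adjusted p = 0.170). Cxcl2, Cxcl5 and Csf3 were well above background on 0 arrays.

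Of the 15 tested receptor and surface genes, 12 were lower and 3 higher, where 52.3% of all genes, bright or dim, were lower. Clec4d, a C-type lectin of myeloid cells, differed by -1.16, Il1r2, a decoy receptor for interleukin-1, by -0.64, Cd14, the lipopolysaccharide co-receptor, by -0.57, Ltb4r1, the leukotriene B4 receptor, by -0.55, and Tlr2 by -0.50, with adjusted p of 0.178 to 0.621 in limma's test. Without saline 2 the differences were -0.36 for Il1r2 and -0.19 for Ltb4r1, and without P. gingivalis 2 that of Clec4d was -0.68. Clec4d was well above background on 3 saline and 2 P. gingivalis arrays, and Ltb4r1 on 3 and 4. Both lay toward the dim end, where the scale itself differed between groups.

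Of the granule genes outside the 10, Lyz2, lysozyme, shared with macrophages, differed by -0.59, and Hp, haptoglobin, by -0.56. Hp stood at 5.11 in saline 1 against 1.46 to 2.16 in the other saline arrays, and without saline 1 its difference turned to 0.27, higher in P. gingivalis. Elane and Mpo of the primary granules differed by 0.07 and -0.23. Among oxidase and effector genes, 8 of 13 were lower, with Ifitm6 at -0.87, Padi4, the enzyme that citrullinates histones in neutrophil traps, at -0.56, Ncf4, an oxidase subunit, at -0.51, and Hdc, histidine decarboxylase, at -0.42, none past the threshold (limma, adjusted p of 0.148 to 0.558). Of the 9 other tested genes of that list, 4 were lower and 5 higher. Padi4 was well above background on 2 saline and 4 P. gingivalis arrays, Ifitm6 on 3 and 3, and Hdc on 3 and 4. These genes lay toward the dim end, where the scale itself differed between groups.

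Other S100 genes did not share the pattern of the calprotectin pair. The 8 measured, S100a1, S100a4, S100a6, S100a10, S100a11, S100a13, S100a16 and S100b, differed by -0.19 to 0.15, and each was well above background on all 8 arrays. Of the receptors of calprotectin, Ager differed by -0.13, Cd36 by 0.04 and Tlr4 by -0.13. Bsg, basigin, which binds S100a9 and also carries lactate transporters to the muscle surface, lay between 4.03 and 4.21 in saline and 4.34 and 4.47 in P. gingivalis. Its difference of 0.30 did not pass (limma, adjusted p = 0.0746).

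**Figure D4:**
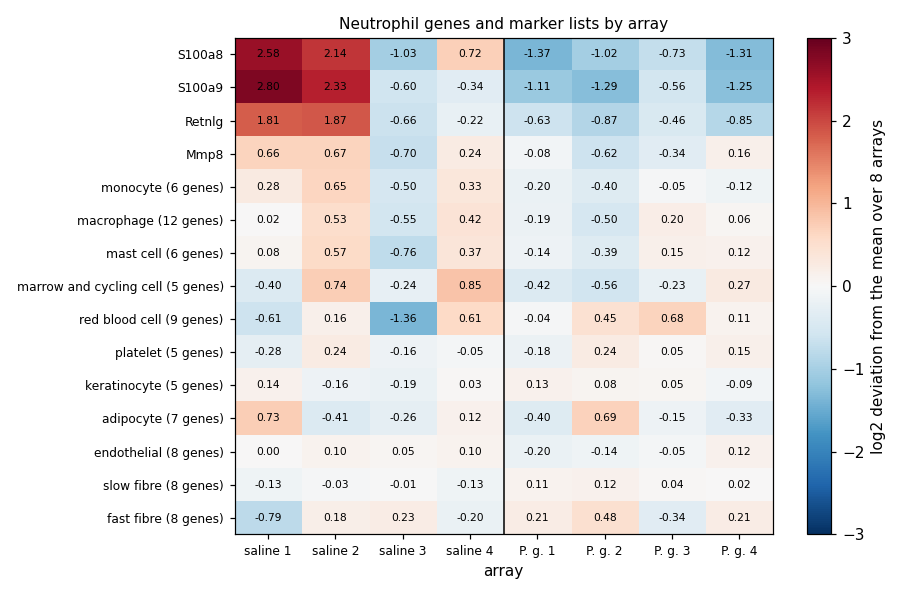
Each row is a gene or marker list and each column an array, and each cell gives the log2 deviation from the mean over the 8 arrays, averaged over the tested genes of a list (4 arrays per group, split by the black line). S100a8, S100a9 and Retnlg stand 1.81 to 2.80 above their means in saline 1 and 2, where the monocyte list stands at 0.28 and 0.65 and the red blood cell list at -0.61 and 0.16.

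Markers of other cells that make or accompany these transcripts were read on the same arrays, where 52.3% of all genes, bright or dim, were lower in P. gingivalis. Monocyte genes were lower in 5 of 6, with mean values of -0.02 to 1.13 in saline and 0.08 to 0.43 in P. gingivalis, and all 6 were measured. Their deviation was highest in saline 2 (0.65), then saline 4 (0.33) and saline 1 (0.28). Macrophage genes were lower in 9 of 12, with means of -1.06 to 0.02 and -1.01 to -0.31, and deviated by 0.02 in saline 1 and 0.53 in saline 2. Mast cell genes were lower in 4 of 6, with means of -3.44 to -2.12 and -3.07 to -2.53. Genes of cycling cells, as in marrow, were lower in 5 of 5, with means of -2.84 to -1.59 and -3.002 to -2.165, and deviated by -0.40 in saline 1 and 0.74 in saline 2. Red blood cell genes were higher in 9 of 9, with means of 1.59 to 3.56 and 2.92 to 3.63. The array highest in S100a8 and S100a9, saline 1, was the second lowest in these, while saline 2 deviated by 0.16. Saline 3, where calprotectin was low, was the lowest (-1.36). It was also the lowest in the monocyte (-0.50), macrophage (-0.55) and mast cell (-0.76) lists, but not in that of cycling cells (-0.24). Keratinocyte genes, since skin also makes calprotectin, were lower in 1 of 5, with means of -2.30 to -1.97 and -2.20 to -1.98. They deviated by 0.14 in saline 1, -0.16 in saline 2 and -0.19 in saline 3. Of the 3 untested keratinocyte genes, Dsg1a was well above background on 0 arrays, Krt1 on 1 saline and 2 P. gingivalis arrays, and Sprr1a on 3 saline and 0 P. gingivalis arrays. Fat cell genes were lower in 4 of 7, with means of 1.04 to 2.18 and 1.05 to 2.14, and were highest in saline 1 (0.73) and P. gingivalis 2 (0.69), the 2 arrays highest in Hp. Fast fibre genes deviated by -0.79 on average in saline 1, the lowest of the 8, led by Myh4 (-4.03) and Pvalb (-1.32), while the other 6 genes deviated there by -0.30 to -0.09. Of 5 eosinophil and basophil markers 0 were tested, with Siglecf, Epx, Ccr3 and Mcpt8 well above background on 0 arrays. T and natural killer cell genes were lower in 5 of 6 (median difference -0.10), B cell genes in 3 of 4 (-0.09), platelet genes in 2 of 5 (0.02) and endothelial genes in 5 of 8 (-0.09), while slow fibre and fast fibre genes were higher in 8 of 8 each (0.15 and 0.15). None of the genes on these lists passed the threshold in limma's test, and their part in the calprotectin values was not tested.

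The genes whose values most resembled the mean of S100a8 and S100a9 were sought among 3850 tested genes that spanned at least 1 over the 8 arrays. The closest was Ccl19, a chemokine of lymphoid tissue, at r = 0.97. It stood at -1.001 and -0.71 in saline 1 and 2 and between -2.96 and -2.47 on the other 6 arrays. The others reported, all over 8 arrays, were 4933435E02Rik (0.96), Slfn8 (0.96), Nkrf (0.96), Cxcl1 (0.96), Gm30455 (0.95) and LOC102641639 (0.95). Slfn8, of the Schlafen family, stood at -2.67 and -2.44 in saline 1 and 2 and between -4.27 and -3.51 elsewhere. With 8 arrays of which 2 are high, such correlations are descriptions. None of these genes passed between the groups (limma, adjusted p of 0.170 to 0.302).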

How the data were processed

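Intensity values per spot were deposited as scanner output of Agilent Feature Extraction 11.0.1.1 per the file headers (11.1 per the submitters' processing notes), background-subtracted, in build mm9. From the log2 of each processed signal was taken that of the 75th percentile of its array, which was 648 to 764. Control and outlier-flagged spots were left out and spots of a probe averaged. Of 56605 probes, 33636 well above background on at least 4 arrays were kept, and the brightest kept probe represented each of 22221 genes. The test was limma (3.58.1, under R 4.3.3), two-sided, with no covariates and Benjamini-Hochberg adjusted p-values over the 22221 genes, and the procedure was tested on simulated data. The number of arrays limits the precision. Probes were named through RefSeq tables of GRCm38.p6. A table of log2 values and p-values was deposited by the authors; its deposited score columns (t and B) were left aside. Its 28250 entries were rebuilt exactly with normexp (offset 16), quantile normalization and, as its filter, 1.1 times the negative controls' 95th percentile, steps no header records. The 10 genes and all lists were chosen with earlier results of these data known. All 10 are named, as are the 12 genes of the wider list with the largest differences (others there were chosen after their values were seen) and the 8 closest in pattern, except for items that are not reported here. Alternatives changed background correction, scaling, the dim-probe filter, probe choice, variance model, replicate block and arrays.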

Additional observations from a re-analysis of the deposited data

Results flagged for a closer look

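In 60 groups of 4 arrays checked, 2 had an array far from the rest of its group, where chance gives about 5%. Ngp stood at -6.64 in P. gingivalis 4 against -7.52 in the next highest array of that group, below the detection call on each. Hp stood at 3.24 in P. gingivalis 2 against 1.82 in the next.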

How the results depend on the processing

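The S100a8, S100a9, Csf3r, Cxcr2 and Mmp8 differences kept their sign under every alternative that gave a value. The smallest adjusted p was 0.0756 for S100a8 and 0.121 for S100a9. With no filter on dim probes 1 of the 10 genes passed, Cxcr2, and 7 of the wider list, where 5154 genes passed in all. Of those 7, Csf3, Cxcl15, Mmp25, Olfm4 and Stfa1 were well above background on 0 arrays and differed by -0.82 to -0.67. Over all probes well above background on no array the median difference was -0.70. Of the wider list 1 passed under normexp (453 of all genes), quantile normalization (221), the table's processing (350) and probes above background on all arrays (261). With trended variance 2 passed (567 of all genes). The Camp sign turned to 0.0079 under normexp, 0.0753 under quantile normalization and 0.0491 under the table's processing (-0.0832 to 0.0011 with each array left out). Lcn2 turned to 0.0133 with probes averaged and 0.14 without saline 1 and P. gingivalis 3 (-0.32 to 0.0547 with each array left out). Of the 12 named genes of the wider list, Hp alone changed sign when an array was left out, a check chosen after seeing the data. The cause was not tested. Arrays of the same number correlated at -0.06 to 0.23 across the groups, and arrays of different numbers at -0.195 to 0.162. The highest value was that of number 4. In a fit with a replicate block, the differences were -2.21 for S100a8 (adjusted p = 0.219) and -2.10 for S100a9 (0.243), and no call changed among these genes. All-gene calls ranged from 0 to 5154 around 26. Signal near background limits Ngp, Ltf, Retnlg, Cxcr2 and Mmp8, and of the wider list Clec4d, Ifitm6, Padi4, Ltb4r1 and Hdc. S100a8 was well above background on all 8 arrays but low in saline 3 (35.3 units) and in the P. gingivalis arrays (29.7 to 46.0). Its difference of -2.21 was -1.45 with normexp and -1.67 with the table's processing, so the size of its fold depended on the processing.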
